A study of Rattus norvegicus with 14 samples.

Results

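Chemokines and their receptors were examined in 7 rat cell lines, as all genes on the array whose name begins with Ccl, Cxcl, Cx3cl1, Ccr, Cxcr or Cx3cr1 followed by its number. These were 48 of the 35508 names on the array, 31 chemokines and 17 receptors, measured by 55 probes, and the brightest probe by its mean over all arrays stood for a gene. The genes were taken by name, with earlier results of these data known, and levels were used to pick the probe of a gene. Total RNA of each line was hybridized to a pair of one-colour Agilent arrays, called A and B. The blastocyst lines were Fi1 (Fischer, male), Fi2 (Fischer, female) and Wk8 (Wistar-Kyoto, female), and the bone marrow lines were CL19 (Fischer, female), 3C3 and RMAPC-1 (both Fischer, male). The control was 1 mesenchymal line, RClone-2 (Fischer, male). The labels name no treatment, age or passage, and they do not say whether arrays A and B came from separate cultures, so the line was the unit of replication and arrays A and B were averaged before any test. The study asked how stem cell lines obtained from blastocysts and from bone marrow under one culture condition compare.

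Chemokines are small secreted proteins that guide the migration of cells, mainly leukocytes, through receptors coupled to G proteins. The CC and CXC families are named for the spacing of their first cysteines, Cx3cl1 is bound to the membrane, and each family has its own receptors. Many inflammatory chemokines are switched on by NF-kB, while Cxcl12 and its receptor Cxcr4 guide stem and progenitor cells in the embryo and in bone marrow. Stromal cells of bone marrow are a known source of chemokines.

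Every value below is the log2 of the processed signal of a probe minus the log2 of the 75th percentile of the same array, so that 0 is that percentile and 1 more is a doubling. That percentile was 558.9 to 891.5 signal units, and 61.7% to 68.0% of probes were well above background, the scanner software's mark for a detected spot. The number of lines limits the precision, and with RNA of whole cultures, fewer cells of a type and less RNA per cell cannot be told apart. The labelled kinds of line were checked against marker genes. For these, signals were summed over the genes of a list before the log2, so that the brightest genes weigh most. The sum of the 8 primitive endoderm markers stood at 8.11 to 8.72 on the stem cell arrays, against 1.44 and 1.60 on the RClone-2 arrays. All 8 were tested, of which 7 rose and 0 fell in the stem cell lines against RClone-2. The sum of the 12 mesenchymal stromal markers stood at -0.58 to 0.50 on the stem cell arrays, against 8.44 and 8.83 on the RClone-2 arrays. Of these 10 were tested, of which 0 rose and 10 fell. Of 6 endothelial markers 5 were tested, of which 4 rose and 0 fell in the stem cell lines against RClone-2, beside 24.8% and 22.4% of all genes. No probe of a chemokine or receptor was saturated on any array.

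Testing was limited to genes whose probe was well above background on arrays A and B of 1 line or more. This held for 20 of the 48 members, 14 chemokines and 6 receptors. Between 8 and 16 members were well above background on each stem cell array, against 17 and 18 on the RClone-2 arrays. Ccl27, Cx3cl1, Cxcl10, Cxcl12, Cxcl17 and Cxcr7, now named Ackr3, were above background on all 14 arrays. Ccl2, Ccl7, Cxcl2, Cxcl13 and Ccr1 were above background in RClone-2 and on 0 of the 12 stem cell arrays. These 5 entered the test through RClone-2 alone, so that a call could only be a fall in the stem cell lines. Their SE and p-value rest on stem cell readings at background, since RClone-2, as 1 line, adds no spread. Ccl25, Ccr1l1, Ccr4 and Cxcr5 were above background on some stem cell arrays and on neither RClone-2 array. These 4 entered the test through stem cell lines alone, which favours a rise, although the fitted difference of Ccr1l1 was -0.0016.

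The 28 members that did not pass the filter were mostly silent at the depth of the arrays. Above background on 0 of 14 arrays were 19 members, among them Ccl3, Ccl4, Ccl6, Ccl9, Ccl11, Ccl12, Ccl19, Ccl20, Ccl21b (now Ccl21), Cxcl6, Ccr2, Ccr3, Ccr6, Ccr7, Ccr8, Ccr9, Cx3cr1 and Cxcr6. Cxcl11 was above background on 4 arrays, Ccl17 and Cxcr3 on 3, Ccl24 on 2, and Ccl5, Ccl26, Ccl28, Cxcl9 and Ccr10 on 1.

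**Figure D1:**
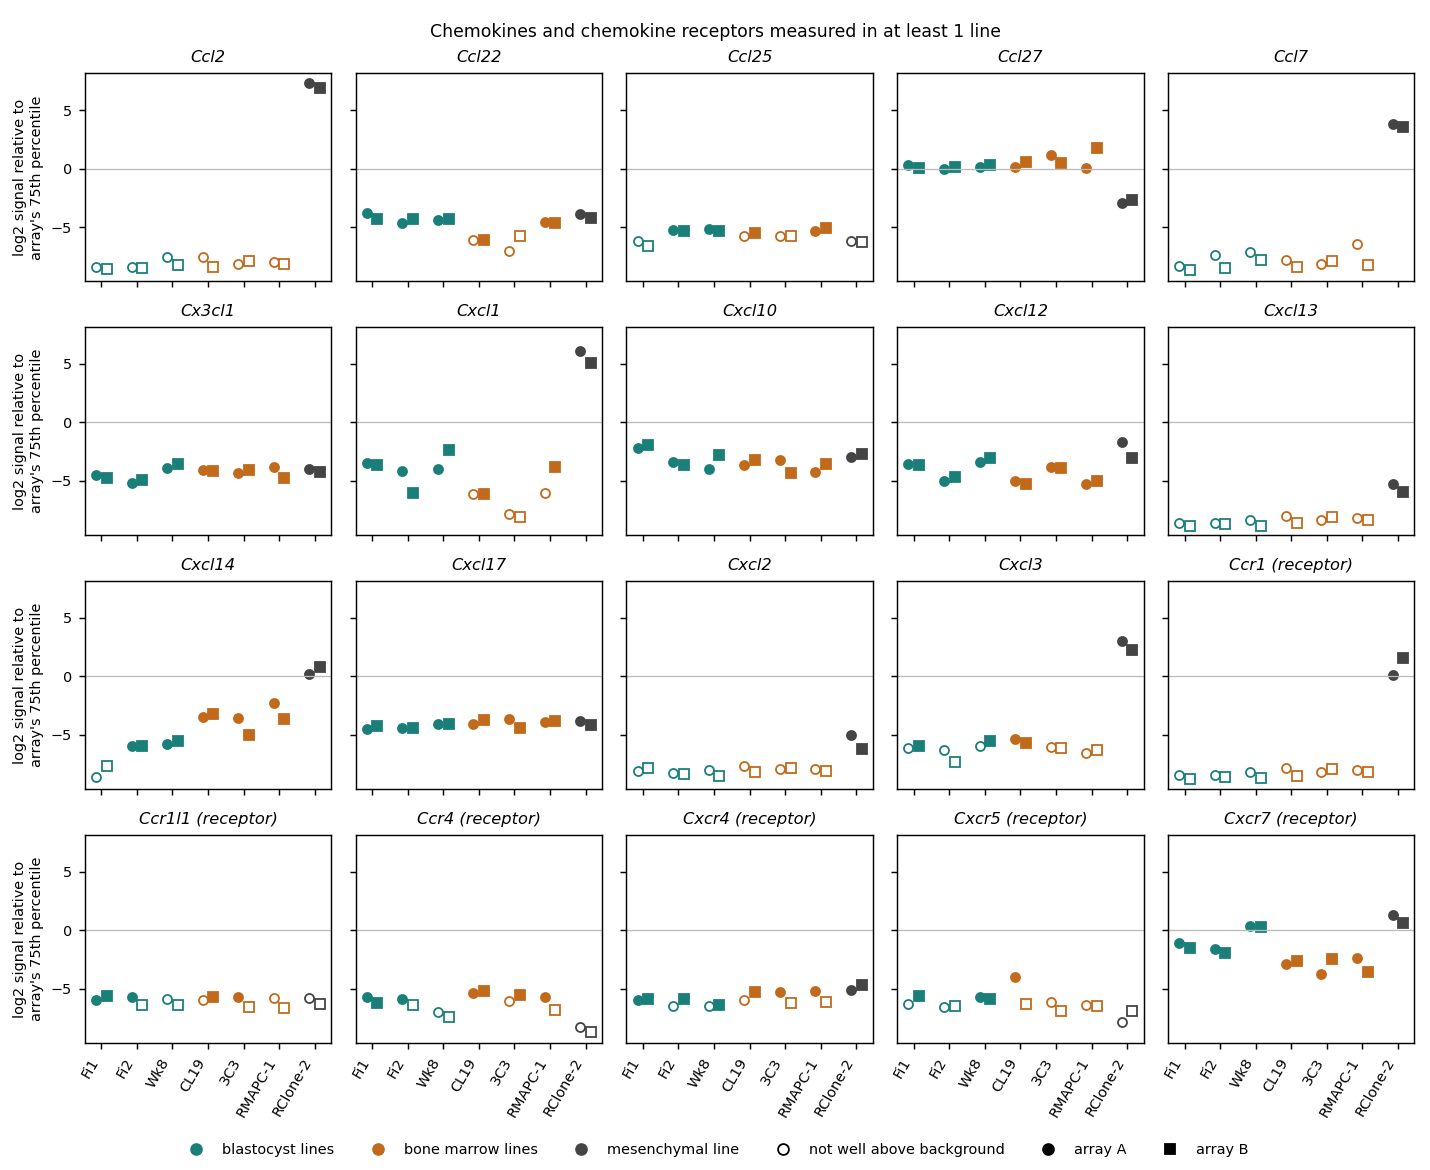
Log2 signal relative to the array's 75th percentile (vertical axis) of the 20 tested chemokines and receptors in the 7 lines, with circles for array A, squares for array B, and open symbols where the probe was not well above background. Ccl2, Ccl7, Cxcl1, Cxcl3 and Ccr1 stand far higher in RClone-2 than on any stem cell array, and Ccl27 stands lower in RClone-2.

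The first comparison set the 6 stem cell lines against RClone-2. Of the 20 tested members, 12 passed (limma, adjusted p under 0.05): 2 rose in the stem cell lines and 10 fell. Over all 24856 genes tested, 47.2% passed, 24.8% higher and 22.4% lower. The median log2 difference was -1.50 over the 20 members and 0.03 over all genes. Because 5 members entered the test through RClone-2 alone and 4 through stem cell lines alone, these counts describe the members and carry no test of the group.

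The monocyte attractants Ccl2 and Ccl7 were both high in RClone-2 and undetected in the stem cell lines. Ccl2, which draws monocytes through Ccr2, lay between -8.63 and -7.55 on the 12 stem cell arrays (median -8.19), against 7.34 and 6.88 on the RClone-2 arrays. Both RClone-2 arrays detected it and no stem cell array did. In the processed signal, Ccl2 was therefore lower by at least 10462-fold in the stem cell lines (log2 difference of the fit -15.27 ± 0.25, SE, 6 lines against 1, adjusted p = 1.11e-06). With normexp background correction, an alternative, the difference was -10.38, less than that bound.

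Ccl7, which acts through several receptors that include Ccr1 and Ccr2, lay between -8.66 and -6.44 on the stem cell arrays (median -8.03), against 3.80 and 3.51 on the RClone-2 arrays. It was lower by at least 957-fold in the stem cell lines (-11.56 ± 0.44, adjusted p = 1.04e-05). Normexp background correction gave a difference of -6.90, again less than the bound. A second probe gave a difference of -11.98 ± 0.29 (adjusted p = 2.27e-06), although the last 29 bases of the brighter probe are also the first of the second, so the 2 oligos are not independent. The brighter probe is shown with these shared bases in capitals. It lies at chr10:70268643-70268702 (rn4, plus strand).
Ccl7 probe: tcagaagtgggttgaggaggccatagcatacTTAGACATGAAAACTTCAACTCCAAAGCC

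The neighbours of Ccl2 and Ccl7 were not detected. On chromosome 10 (rn4) the probes of Ccl2, Ccl7, Ccl11 and Ccl12 lie within 64.5 kb, and Ccl11 and Ccl12 were at -8.13 and -8.02 and at -7.01 and -8.44 in RClone-2, not above background there or in any other line. Farther along the chromosome, Ccl3, Ccl4, Ccl6 and Ccl9 were likewise above background on 0 of 14 arrays. Ccl5, a ligand of Ccr1, was above background on array B of RClone-2, at -6.45, and on 0 of the stem cell arrays.

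The neutrophil attractants Cxcl1, Cxcl2 and Cxcl3, which act through the receptor Cxcr2, were also lower in the stem cell lines. No probe carried the name Cxcr2, so that receptor is not among the members. Cxcl1 lay between -8.08 and -2.32 on the stem cell arrays (median -5.10), against 6.08 and 5.07 on the RClone-2 arrays. It was above background on all 6 blastocyst arrays and on 2 of 6 bone marrow arrays, and it was 1671-fold lower in the stem cell lines (-10.71 ± 1.16, adjusted p = 0.000757). Its SE was the widest of the 12 members that passed, with line means of -7.95 in 3C3 and -3.15 in Wk8 at the ends of the stem cell range. The stem cell mean includes arrays that did not detect Cxcl1, and normexp background correction gave a difference of -8.34.

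Cxcl3 lay between -7.30 and -5.34 on the stem cell arrays (median -6.06), where 4 of 12 arrays detected it, against 3.05 and 2.26 on the RClone-2 arrays. It was 432-fold lower in the stem cell lines (-8.75 ± 0.46, adjusted p = 3.83e-05). That stem cell mean consists mostly of arrays that did not detect Cxcl3, and normexp background correction gave a difference of -5.64. A second Cxcl3 probe disagreed, since it was at -8.20 and -8.62 in RClone-2, not above background, so the difference rests on 1 probe. That probe lies at chr14:18786864-18786923 (rn4, minus strand).
Cxcl3 probe: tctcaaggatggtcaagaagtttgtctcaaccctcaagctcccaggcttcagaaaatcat

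Cxcl2 lay between -8.54 and -7.66 on the stem cell arrays (median -8.04), none above background, against -4.98 and -6.17 on the RClone-2 arrays. It was lower by at least 1.59-fold in the stem cell lines (-2.48 ± 0.19, adjusted p = 0.000194). The B cell attractant Cxcl13 gave a similar picture, between -8.84 and -7.98 on the stem cell arrays (median -8.45), against -5.29 and -5.92 on the RClone-2 arrays, and lower by at least 1.55-fold (-2.83 ± 0.14, adjusted p = 2.70e-05). With normexp background correction neither passed, with differences of -0.23 for both (adjusted p = 0.843 for Cxcl2 and 0.854 for Cxcl13). Cxcl6, the next CXC gene after Cxcl3 within a stretch of 148 kb that begins at Cxcl2, was above background on 0 of 14 arrays.

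**Figure D2:**
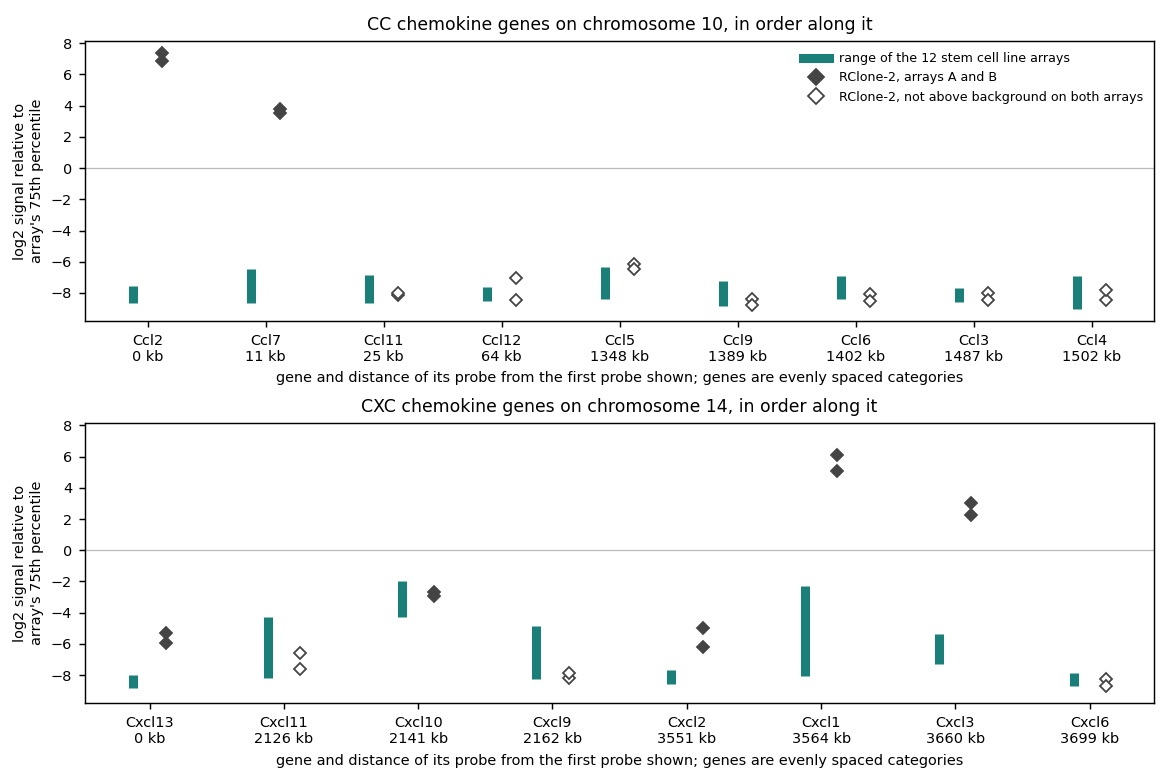
Log2 signal relative to the array's 75th percentile (vertical axis) of chemokine genes on chromosome 10 (upper panel) and chromosome 14 (lower panel), in their order on rn4 and evenly spaced, with the distance in kb of each probe from the first one shown. Bars span the 12 stem cell line arrays and diamonds are the 2 RClone-2 arrays, open where not above background on both; Ccl2, Ccl7, Cxcl1 and Cxcl3 stand above 2 in RClone-2, and Ccl11, Ccl12 and Cxcl6 beside them are at background.

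Start sites of 35 of the 48 members were in a RefSeq promoter table (GRCr8), which gives 250 bases before and 50 after each start. Ccl2, Cxcl3 and Ccr4 were not among them, so their promoters were not searched. All motifs were searched on both strands, and the choice of the kB consensus, the degenerate 10-letter sequence bound by NF-kB, was made after these promoters had been seen. It stood in 9 of the 35 promoters, those of Ccl7, Ccl9, Ccl20, Cxcl1, Cxcl2, Cxcl6, Cxcl10, Cxcl11 and Ccr3, and in 7.51% of all 33469 promoters. The AP-1 motif TGANTCA stood in 6 of 35, against 7.33% of all, the GC box GGGCGG in 10 of 35, against 33.1%, and TATAAA in 12 of 35, against 14.2%. The promoters of Ccl7 and Cxcl1, both high in RClone-2, of Cxcl6, which was not detected, and of Cxcl10, which was detected in every line, are shown with kB and AP-1 matches in capitals, since they let the letters be set beside the levels.
Ccl7 promoter, chr10:67513845-67514144, plus strand: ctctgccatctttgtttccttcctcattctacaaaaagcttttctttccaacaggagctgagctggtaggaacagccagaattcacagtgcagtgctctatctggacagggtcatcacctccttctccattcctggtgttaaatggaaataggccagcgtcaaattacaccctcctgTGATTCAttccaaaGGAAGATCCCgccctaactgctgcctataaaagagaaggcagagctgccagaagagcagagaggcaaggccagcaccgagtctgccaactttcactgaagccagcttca
Cxcl1 promoter, chr14:17479272-17479571, minus strand: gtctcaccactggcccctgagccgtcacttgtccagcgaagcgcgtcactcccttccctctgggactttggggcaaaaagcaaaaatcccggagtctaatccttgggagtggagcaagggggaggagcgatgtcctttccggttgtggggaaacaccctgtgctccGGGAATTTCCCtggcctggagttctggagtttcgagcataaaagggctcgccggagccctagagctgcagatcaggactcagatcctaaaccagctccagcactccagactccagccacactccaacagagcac
Cxcl6 promoter, chr14:17596368-17596667, minus strand: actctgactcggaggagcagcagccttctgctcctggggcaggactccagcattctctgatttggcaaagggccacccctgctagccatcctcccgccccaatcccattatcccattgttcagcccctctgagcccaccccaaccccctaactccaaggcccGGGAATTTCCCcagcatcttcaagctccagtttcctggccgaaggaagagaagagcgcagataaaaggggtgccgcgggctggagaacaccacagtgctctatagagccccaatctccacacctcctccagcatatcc
Cxcl10 promoter, chr14:15988816-15989115, plus strand: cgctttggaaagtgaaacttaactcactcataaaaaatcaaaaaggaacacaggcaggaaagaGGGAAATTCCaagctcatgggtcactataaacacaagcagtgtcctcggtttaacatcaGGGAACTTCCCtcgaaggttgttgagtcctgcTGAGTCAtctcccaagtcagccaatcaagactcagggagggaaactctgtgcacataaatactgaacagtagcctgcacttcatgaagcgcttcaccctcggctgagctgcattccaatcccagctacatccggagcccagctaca
The Cxcl1 and Cxcl6 windows each hold 1 run of 11 bases in which a match on either strand overlaps, at 84 and 88 bases before the start. Cxcl1 was above background on both RClone-2 arrays and Cxcl6 on no array of any line, so that kB letters stood before a detected and an undetected neighbour. A match describes these windows only.

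Ccr1, a receptor for Ccl7 and for Ccl3 and Ccl5, was the receptor with the largest difference. It lay between -8.77 and -7.87 on the stem cell arrays (median -8.32), none above background, against 0.10 and 1.58 on the RClone-2 arrays. It was lower by at least 136-fold in the stem cell lines (-9.17 ± 0.14, adjusted p = 1.11e-06). This SE rests on stem cell readings at background, while the RClone-2 arrays themselves differed by 1.48. Normexp background correction gave a difference of -4.28, less than the bound. The Ccr1 probe lies at chr8:128694469-128694528 (rn4, minus strand).
Ccr1 probe: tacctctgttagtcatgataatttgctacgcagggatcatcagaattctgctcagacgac
Ccr1 is best known from myeloid cells, and markers of leukocytes were read beside it. Of 17 leukocyte markers, 11 were tested, of which 5 rose and 2 fell in the stem cell lines, beside 24.8% and 22.4% of all genes. The summed level of the 17 was 3.32 to 5.27 on the stem cell arrays, against 3.49 and 4.12 on the RClone-2 arrays. Aif1, Itgam, Itgb2 and Cd3e, which define macrophages, myeloid cells, leukocytes and T cells, were above background on 0 of 14 arrays. Ptprc, which marks all leukocytes, was above background on 5 of 12 stem cell arrays and 1 RClone-2 array and was not tested. Cd52 was higher by at least 1170-fold in the stem cell lines (adjusted p = 1.41e-05) and Coro1a by at least 34.4-fold (adjusted p = 0.000117). Fcer1g (1.49, adjusted p = 0.00969), Cd68 (0.96, adjusted p = 0.0268) and Tyrobp (0.55, adjusted p = 0.0447) were higher too. The markers that fell in the stem cell lines were Cd14 (-5.32, adjusted p = 1.81e-05) and Csf1r (-1.18, adjusted p = 0.0349). Their part in the Ccr1 difference was not tested.

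Cxcl14, a chemokine found in epithelia and other tissues, was lower in the stem cell lines and spread widely among them. It lay between -8.57 and -2.31 on the stem cell arrays (median -5.29), against 0.18 and 0.79 on the RClone-2 arrays. It was 46.5-fold lower in the stem cell lines (-5.54 ± 0.95, adjusted p = 0.00488). The stem cell mean includes arrays that did not detect Cxcl14, and normexp background correction gave a difference of -3.40. The Cxcl14 probe lies at chr17:14291546-14291605 (rn4, plus strand).
Cxcl14 probe: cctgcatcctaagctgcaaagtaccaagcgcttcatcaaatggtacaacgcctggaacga

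Cxcl12 and its receptors Cxcr4 and Cxcr7 were next. Cxcl12 and Cxcr7 were above background on all 14 arrays, and Cxcr4 on 7 of 12 stem cell arrays and both RClone-2 arrays. Cxcl12 lay between -5.26 and -3.02 on the stem cell arrays (median -4.28), against -1.64 and -3.06 on the RClone-2 arrays, so that the ranges touched. The difference did not pass for the stem cell lines together (-1.95 ± 0.72, adjusted p = 0.0688), whereas bone marrow lines alone passed against RClone-2 (-2.36 ± 0.77, adjusted p = 0.0485). Neither was firm, since the first passed in 7 of 23 alternatives and the second lost its call in 10 of 24. Those losses are not all separate. The slide pair term, the fit without CL19 and the fit within slides 2 and 4 rest on the same difference of -2.14. A second Cxcl12 probe, listed for another transcript, was above background on 4 of 12 stem cell arrays, none of bone marrow lines, and on both RClone-2 arrays. It lay at -8.54 to -5.51 on the stem cell arrays, against -1.34 and -3.13 on the RClone-2 arrays. That probe gave -4.89 ± 0.97 (adjusted p = 0.00825) for the stem cell lines together.

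Cxcr7, a receptor of Cxcl12 that takes up the ligand, lay between -3.73 and 0.39 on the stem cell arrays (median -2.17), against 1.34 and 0.65 on the RClone-2 arrays. It was 7.55-fold lower in the stem cell lines (-2.92 ± 0.71, adjusted p = 0.0179), a call that ended with a term for the slide pair (adjusted p = 0.0686) and without all A arrays (adjusted p = 0.0561). Cxcr4, the signalling receptor of Cxcl12, lay between -6.47 and -5.22 on the stem cell arrays (median -5.97), against -5.09 and -4.66 on the RClone-2 arrays. It was 2.06-fold lower (-1.04 ± 0.21, adjusted p = 0.00816), the call ended in 4 of 23 alternatives (differences -1.08 to -0.19, adjusted p up to 0.879), and a second Cxcr4 probe was above background on no array.

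Ccl27 and Ccr4 were the 2 members higher in the stem cell lines. Ccl27, known as an attractant of skin-homing T cells through Ccr10, lay between -0.07 and 1.74 on the stem cell arrays (median 0.22), against -2.92 and -2.73 on the RClone-2 arrays. It was 9.34-fold higher in the stem cell lines (3.22 ± 0.24, adjusted p = 0.000153), and it passed in 23 of 23 alternatives. Its receptor Ccr10 was above background on 1 of 14 arrays, Fi1 B.

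Ccr4, a receptor of regulatory and helper T cells for Ccl17 and Ccl22, lay between -7.40 and -5.18 on the stem cell arrays (median -5.93), of which 7 of 12 were above background, against -8.27 and -8.69 on the RClone-2 arrays. Detected in stem cell lines alone, it entered the test through them, which favours a rise. It was higher by a bound of 1.27-fold, whose stem cell mean includes arrays that did not detect it (2.39 ± 0.54, adjusted p = 0.0136). Ccr4 lost its call with normexp background correction (0.21, adjusted p = 0.875) and with a term for the slide pair (1.90, adjusted p = 0.0845). Its probe lies at chr8:118883267-118883326 (rn4, minus strand).
Ccr4 probe: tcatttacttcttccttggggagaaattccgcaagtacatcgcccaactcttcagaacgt

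The 7 tested members not yet described did not pass against RClone-2. Cxcl10, an interferon-induced T cell attractant, lay between -4.29 and -1.94 on the stem cell arrays (median -3.47), against -2.92 and -2.69 on the RClone-2 arrays. Cx3cl1, the membrane-bound chemokine, lay between -5.21 and -3.51 (median -4.24), against -3.98 and -4.25. Cxcl17, a chemokine of mucosal tissues, lay between -4.46 and -3.66 (median -4.05), against -3.83 and -4.15. For these 3 genes both RClone-2 arrays lay inside the range of the stem cell arrays.

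Ccl22, a ligand of Ccr4, lay between -7.01 and -3.77 on the stem cell arrays (median -4.62), against -3.87 and -4.26 on the RClone-2 arrays. Ccl25, a ligand of Ccr9 in thymus and gut, lay between -6.59 and -5.05 (median -5.43), against -6.16 and -6.28. The B cell receptor Cxcr5 lay between -6.87 and -3.96 (median -6.30), against -7.83 and -6.92, and the Ccr1 relative Ccr1l1 between -6.67 and -5.62 (median -5.93), against -5.81 and -6.26. Ccl25, Cxcr5 and Ccr1l1 were above background on 7, 4 and 5 of the 12 stem cell arrays and on neither RClone-2 array. Of these 7 genes, Cxcr5 was the one whose stem cell arrays all lay on one side of RClone-2 (adjusted p = 0.0924).

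**Figure D3:**
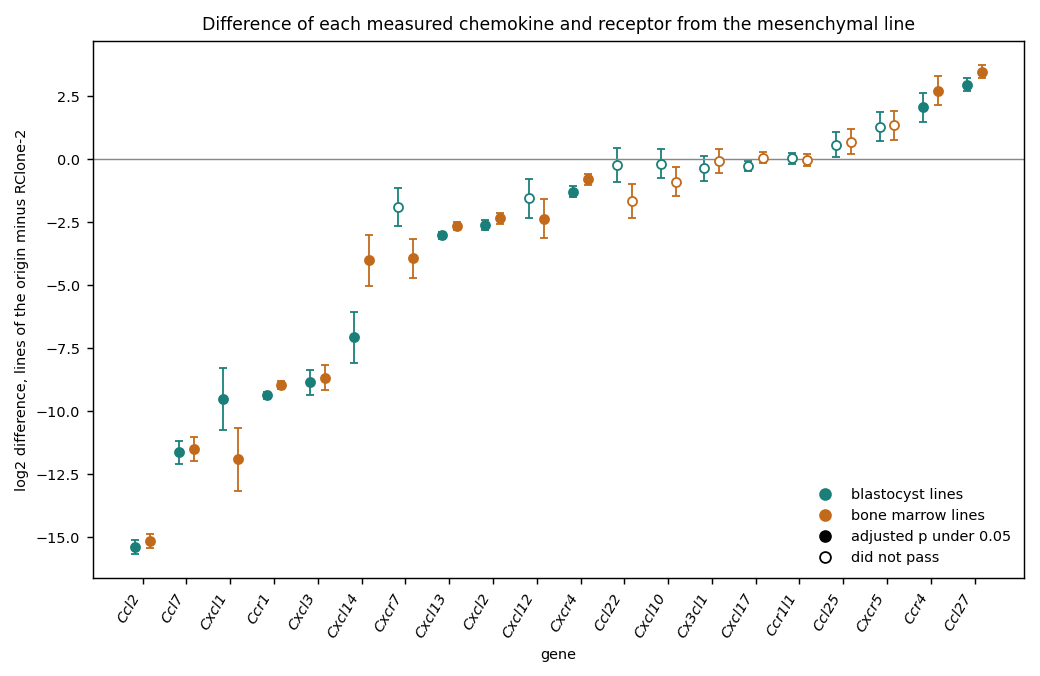
Fitted log2 difference from RClone-2 (vertical axis, points with SE) of the 20 tested members for the blastocyst lines and the bone marrow lines (3 lines each against 1), filled where the adjusted p was under 0.05. The differences run from -15.39 for Ccl2 in the blastocyst lines to 3.48 for Ccl27 in the bone marrow lines; where 1 of the groups was not above background the point is set against a background level, and for those that passed the text gives a bound.

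Each origin was also set against RClone-2 separately. In the blastocyst lines 11 of 20 members passed, with 2 rising and 9 falling, beside 48.7% of all genes (22.3% higher and 26.4% lower). In the bone marrow lines 13 of 20 passed, with 2 rising and 11 falling, beside 46.3% of all genes (26.8% higher and 19.4% lower). Both comparisons share the RClone-2 arrays. They also share the 5 members that entered the test through RClone-2 alone and the 4 that entered through stem cell lines alone. These counts, and those against RClone-2 under other settings below, therefore describe the members and carry no test of the group. For Cxcr7, bone marrow lines passed against RClone-2 (-3.93 ± 0.76, adjusted p = 0.00785), while blastocyst lines did not (-1.90 ± 0.76, adjusted p = 0.0838). Cxcl14 was 134-fold lower in the blastocyst lines and 16.1-fold lower in the bone marrow lines, the second a call that ended in 2 of 24 alternatives. The blastocyst mean includes Fi1, where Cxcl14 was at background. Normexp background correction gave log2 differences of -3.84 for the blastocyst lines and -2.97 for the bone marrow lines. The bound for the fall of Ccl2 was at least 12012-fold in the blastocyst lines and 9112-fold in the bone marrow lines, while Ccl7 fell by at least 1099-fold and 833-fold, and Ccr1 by at least 156-fold and 118-fold. For Cxcl2 these bounds were 1.83-fold and 1.39-fold, and for Cxcl13 1.78-fold and 1.35-fold. Each of these bounds holds for the processed signal and not with normexp background correction, which gave smaller differences. Ccr4 was higher with bounds of 1.02-fold in the blastocyst lines and 1.60-fold in the bone marrow lines. These group means include arrays without detection, since 3 of 6 and 4 of 6 arrays detected it. The first call ended in 10 of 23 alternatives, both slide terms among them, and the second in 1 of 24.

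The arrays lay on 4 slides. The blastocyst lines shared no slide with RClone-2, so no value within a slide exists for them, and the bone marrow line CL19, hybridized beside the blastocyst lines, is the only link in a fit with a slide term. With a term for the slide pair 10 of 20 members passed for the blastocyst lines against RClone-2, beside 6168 of all 24856 genes. With slide as a fixed term 9 members passed, beside 8635 of all genes. RClone-2 was on slides 2 and 4 with the bone marrow lines 3C3 and RMAPC-1. Within these slides 13 of 20 members passed for bone marrow lines against RClone-2, beside 8709 of all 24856 genes. There Ccl27 differed by 3.66, and Ccl2, Ccl7, Cxcl1, Cxcl3 and Ccr1 passed as falls. Cxcl12 (-2.14, adjusted p = 0.0989) and Cxcr4 (-0.82, adjusted p = 0.0535) did not pass there.

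The comparison of blastocyst with bone marrow lines, the one the study is built on, called few of these genes. Of the 20 tested members 4 passed, with 1 rising and 3 falling in blastocyst lines, beside 32.8% of all genes (8.25% higher and 24.6% lower). The calls for Ccr1 and Cxcl13 concern probes that were not above background in either group, so no difference is given for them. The other two were Cxcl14 and Cxcr7.

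Cxcl14 was at -8.57 and -7.70 in Fi1, -5.96 and -5.94 in Fi2 and -5.77 and -5.55 in Wk8, against -3.43 and -3.22 in CL19, -3.53 and -5.03 in 3C3 and -2.31 and -3.63 in RMAPC-1. All blastocyst arrays were below all bone marrow arrays, and Fi1 alone was at background. Cxcl14 was 8.31-fold lower in blastocyst lines than in bone marrow lines (-3.06 ± 0.72, adjusted p = 0.0261). The blastocyst mean includes Fi1, and normexp background correction gave a difference of -0.87.

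Cxcr7 was at -1.09 and -1.53 in Fi1, -1.58 and -1.93 in Fi2 and 0.39 and 0.30 in Wk8, against -2.87 and -2.65 in CL19, -3.73 and -2.44 in 3C3 and -2.41 and -3.55 in RMAPC-1. Wk8, the only Wistar-Kyoto line, was highest of the 6 stem cell lines, and all blastocyst arrays lay above all bone marrow arrays. Cxcr7 was 4.10-fold higher in the blastocyst lines (2.03 ± 0.54, adjusted p = 0.0348).

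Both calls were fragile. Cxcl14 lost its call in 8 of 25 alternatives and Cxcr7 in 10 of 25, with the direction kept in all of them. The 25 include the fit without RClone-2, which could not change this comparison. The slide pair term and the fit within slides 1 and 3 give the same difference, so they are not separate. Without 3C3, Cxcl14 differed by -3.43 (adjusted p = 0.0546) and Cxcr7 by 1.96 (adjusted p = 0.0994). The count of members that passed was 1, 2, 4, 1, 0 and 1 without Fi1, Fi2, Wk8, CL19, 3C3 and RMAPC-1 in turn. Over all genes those fits called 3713, 5964, 6233, 5586, 3109 and 3102 of 24856. Within slides 1 and 3, where the 3 blastocyst lines met CL19 alone, Cxcl14 differed by -3.25 (adjusted p = 0.235) and Cxcr7 by 1.85 (adjusted p = 0.321), and no gene of the whole array passed there with limma, while 2 members and 5260 of all genes had an unadjusted p under 0.05. With a term for the slide pair limma likewise passed 0 genes of the array between the origins (6516 with an unadjusted p under 0.05), while slide as a fixed term passed 3205.

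**Figure D4:**
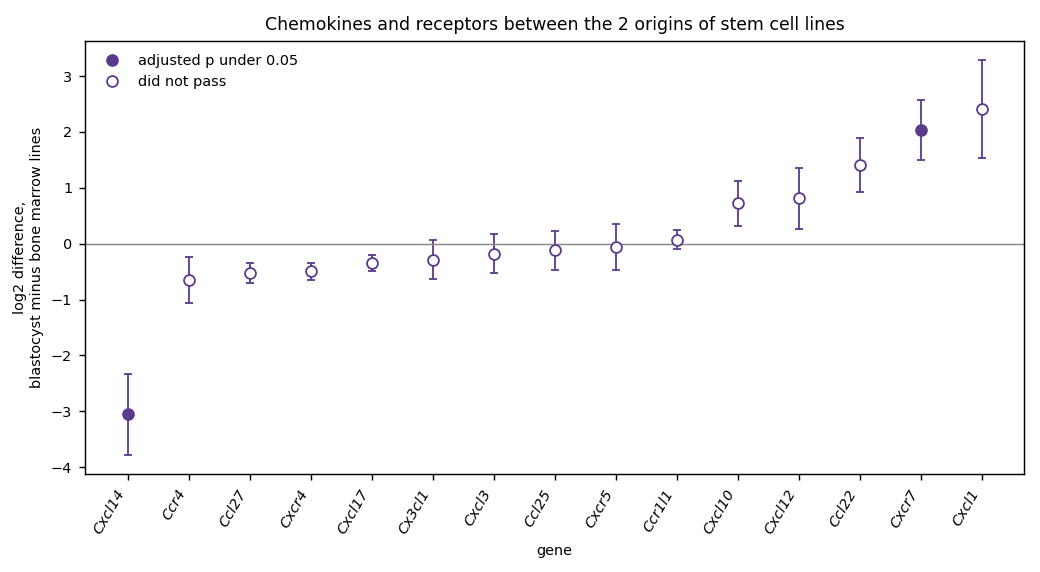
Log2 difference of blastocyst minus bone marrow lines (vertical axis, points with SE, 3 lines against 3) for the 15 tested members above background in at least 1 of these groups, filled where the adjusted p was under 0.05. Cxcl14 lies at -3.06 and Cxcr7 at 2.03; Cxcl1 lies highest at 2.40 but did not pass.

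Several members fell short of the threshold between the origins. Cxcl1 was at -3.44 and -3.61 in Fi1, -4.17 and -6.06 in Fi2 and -3.99 and -2.32 in Wk8, against -6.10 and -6.14 in CL19, -7.82 and -8.08 in 3C3 and -6.03 and -3.83 in RMAPC-1. Its lines overlapped through RMAPC-1 B and Fi2 B (2.40 ± 0.88, adjusted p = 0.0814). Ccl22 lay between -4.69 and -3.77 on the blastocyst arrays (median -4.34), against -7.01 to -4.56 on the bone marrow arrays (median -5.95), with RMAPC-1 beside the blastocyst lines (1.41 ± 0.48, adjusted p = 0.0669). A second Ccl22 probe ran the other way (-0.48 ± 0.14, adjusted p = 0.0458), so no direction is drawn for Ccl22.

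Ccl27 (-0.52 ± 0.18, adjusted p = 0.0698) and Cxcr4 (-0.50 ± 0.16, adjusted p = 0.0548) also had an adjusted p under 0.1 without passing (differences in log2, blastocyst minus bone marrow). Ccl27 lay between -0.07 and 0.34 on the blastocyst arrays (median 0.13), against 0.02 to 1.74 on the bone marrow arrays (median 0.48), with the highest value on RMAPC-1 B. The interferon-induced Cxcl10 was highest in Fi1, at -2.17 and -1.94, against -4.29 to -3.18 on the bone marrow arrays.

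Ligands were set beside their known receptors. Ccl7 and Ccr1 were both above background in RClone-2 and in no stem cell line. Ccr2, the receptor of Ccl2, was above background on 0 of 14 arrays, as were Ccr9 for Ccl25 and Cx3cr1 for Cx3cl1. Cxcr3, the receptor of Cxcl10, was above background on 3 arrays, CL19 B, 3C3 A and RClone-2 A. By its brighter probe, Cxcl12 was above background with Cxcr7 on all stem cell arrays and with Cxcr4 on 7 of 12. The second Cxcl12 probe was above background on 4 of 12. Ccr4, also on 7 of 12, is the receptor of Ccl22, which was above background on 9 of 12.

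Genes of the same system outside the naming rule were read from lists chosen with earlier results of these data known. Of 9 other chemokine system genes on the array, 6 were tested. In the stem cell lines against RClone-2, 1 rose and 0 fell, beside 24.8% and 22.4% of all genes. That gene was Cmklr1, the receptor of chemerin, 5.96-fold higher (2.58, adjusted p = 0.000377). Between the origins, blastocyst lines had 0 of these higher and 2 lower than bone marrow lines, beside 8.25% and 24.6% of all genes. The 2 were the protease Dpp4, which trims chemokines (-3.17, adjusted p = 0.0168), and the platelet chemokine Ppbp (-0.74, adjusted p = 0.0331). As for every gene of the array, these origin calls and those of the lists that follow ended with a term for the slide pair. Pf4 and Xcr1 were above background on no array.

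Of 17 tested genes of chemokine receptor signalling, 2 rose and 6 fell in the stem cell lines against RClone-2, beside 24.8% and 22.4% of all genes, with a median of -0.27. These 8 of 17 are near the 47.2% of all genes that passed. The G protein subunit Gng2 (4.13, adjusted p = 1.03e-05) and the arrestin Arrb2 (2.58, adjusted p = 0.000294) were higher. Rgs2, which dampens G protein signals (-3.99, adjusted p = 0.00294), the other arrestin Arrb1 (-3.36, adjusted p = 0.000114) and the inhibitory G protein subunit Gnai1 (-2.24, adjusted p = 0.00133) were lower. Between the origins 3 were higher in the blastocyst lines, among them the kinase Ptk2b (1.47, adjusted p = 0.0378), and 2 were lower, beside 8.25% and 24.6% of all genes.

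Of 27 tested genes of NF-kB and inflammatory signalling, 3 rose and 10 fell in the stem cell lines against RClone-2, beside 24.8% and 22.4% of all genes, with a median of -0.40. The lipopolysaccharide receptor Tlr4 was 282-fold lower (-8.14, adjusted p = 0.000176), the macrophage growth factor Csf1 221-fold lower (-7.79, adjusted p = 0.000347), and the prostaglandin enzyme Ptgs2 lower by at least 34.1-fold (adjusted p = 2.48e-06). Icam1, an adhesion molecule (3.68, adjusted p = 0.00266), the RNA receptor Tlr3 (1.88, adjusted p = 0.00194) and the kinase Chuk (0.64, adjusted p = 0.0366) were higher. Tnf and Il1b, the main inducers of the pathway, were above background on no array.

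Between the origins 6 of these 27 genes rose and 1 fell in blastocyst lines against bone marrow lines, beside 8.25% and 24.6% of all genes, and all 7 calls ended with a term for the slide pair. The adhesion molecule Vcam1 was at 1.52, 0.22 and 0.18 in Fi1, Fi2 and Wk8, against -2.44, -2.74 and -3.52 in CL19, 3C3 and RMAPC-1 (3.54, adjusted p = 0.00722). The receptor Tnfrsf1b followed with a difference of 2.52 (adjusted p = 0.00802). The inhibitor Nfkbib fell in blastocyst lines (-0.84, adjusted p = 0.0219).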

How the data were processed

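Per the file headers, the authors extracted spots with Agilent Feature Extraction 10.7.3.1 and deposited the processed signal, mean signal and local background as an intensity on a linear scale, with flags for detection, saturation and outliers as other values. A deposited series table was not used here. Log2 processed signals had the array's 75th percentile subtracted, outlier spots (65 to 193 per array) were left out, and spots of a probe were averaged. Names were updated from RefSeq (GRCr8, 20576 of 41012 probes matched); positions are rn4.

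Line means (arrays A and B averaged) entered limma 3.58.1 (R 4.3.3; lmFit, eBayes, 4 residual degrees of freedom), adjusted by Benjamini-Hochberg over 24856 genes, threshold 0.05. RClone-2, a single line, was assumed to vary like the others, and p-values measure the spread between these lines. For a gene that no stem cell array detected, that spread is one of readings at background. If no array of a group was above background, the fold is a bound against the lowest signal well above background, or the probe's own where higher. Such a bound holds for the processed signal only. Where some arrays of a group detected the gene, the fold is not a bound, and its mean includes the other arrays. Every member past the filter is named with values, 1 of the others is not reported here, and up to 3 genes per direction of each companion list. Members and lists were chosen with earlier results of these data known. On simulated data the fit recovered 10.4%, 62.7% and 81.8% of genes changed by 1, 2 and 4 (log2) for stem cell lines against RClone-2. There 67, 67 and 66 genes were changed of 24856, with 9 false calls. In the data 47.2% of genes passed, so these rates do not give the power of the reported fit. Alternatives were other background correction, scaling, filters, probe choice, slide or array terms, a test against a 1.5-fold change, and leaving out lines or arrays. Fits within slides and the second probes were added after seeing the data.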

Additional observations from a re-analysis of the deposited data

Results flagged for a closer look

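Among 30 groups of 6 arrays examined, 1 held an array far from the others, and chance flags about 1 in 20 groups. Cxcr5 stood at -3.96 on array A of CL19, while the nearest of the other bone marrow arrays was at -6.15 and array B of CL19 was at -6.34, not above background. The gap was 0.751 of the range of the group.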

How the results depend on the processing

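Of 46 gene differences with an adjusted p under 0.1 and a measured group, none changed sign in any alternative, and the cause of the changes below was not tested. Ccl2, Ccl7, Cxcl1, Cxcl3, Ccr1, Cxcl14 and Ccl27 kept their call for stem cell lines against RClone-2 in every alternative run; Ccl2 differed by -15.8 to -10.4. With normexp background correction 7 members passed for blastocyst lines against RClone-2, beside 5509 of all 24856 genes. With the filter of 7 of 14 arrays, which left 12 members, 6 passed for the stem cell lines, 5 for the blastocyst lines and 7 for the bone marrow lines against RClone-2. Of the 22384 genes tested then, 10522, 10811 and 10354 passed. For blastocyst against bone marrow lines (4 members), the count was 0 with normexp, with a term for the slide pair, without all A arrays, with the test against a 1.5-fold change and within slides 1 and 3; in these limma fits 4, 2, 4, 3 and 2 members had an unadjusted p under 0.05. Over all genes the same fits called 1278, 0, 2573, 595 and 0 of 24856. The member count was 1 with slide as a fixed term (3205 of all genes) and 7 with spike-in scaling (9721). It was 2 with quantile normalization (5754), median centring (5715) and the percentile taken over the probes that all arrays detected (6080). It was also 2 without array A of RMAPC-1 (4880), and 12 of 48 without a filter (11026 of 35508 genes). Leaving out 1 line gave 0 to 4 members for the origins, 12 to 13 for the stem cell lines, 10 to 13 for the blastocyst lines and 11 to 13 for the bone marrow lines against RClone-2. The fit without RClone-2 could not change the origin counts and is left out of the next range. Over all genes, leaving out 1 stem cell line gave 3102 to 6233 for the origins and 10510 to 12437 for the stem cell lines. For the blastocyst lines it gave 10335 to 12414 and for the bone marrow lines 9900 to 12307. The replicate block, with the array letter as the block and line as a random block, gave 4 members for the origins and 13, 12 and 13 against RClone-2. Over all genes it gave 10267 for the origins and 13249, 13540 and 13038 against RClone-2. The letters do not pair samples across lines. Scaling moved all genes together: the median difference between origins was -0.22 as reported (2051 higher, 6109 lower), -0.48 with spike-in scaling (1181 higher, 8540 lower), 0.26 unscaled (5905 higher, 1241 lower) and -0.07 with median centring (2528 higher, 3187 lower). For stem cell lines against RClone-2 the median was 0.03 as reported, -0.47 with spike-in scaling (3257 higher, 8414 lower) and 0.24 unscaled (7772 higher, 4529 lower). Signal over background limits the 28 members that did not pass the filter and every bound.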
